A study of Macaca fascicularis with 5 samples.

Results

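Perineuronal net components were followed as 10 genes in the dorsal lateral geniculate nucleus (dLGN), the thalamic relay between retina and visual cortex, of cynomolgus monkeys. The genes were the lecticans ACAN, BCAN, NCAN and VCAN, the link proteins HAPLN1, HAPLN2, HAPLN3 and HAPLN4, the cross-linker TNR and the receptor PTPRZ1. All rows of the deposited count table that carried these gene symbols were taken, which gave 30 of its 62655 transcripts and 10 of its 20576 gene symbols. Each transcript was read on its own and summed with the others of its gene, in all 5 libraries.

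Monocular deprivation was modelled by suturing the left eye of infant monkeys, and 1 library of oligo(dT)-selected RNA was sequenced per animal. By their labels, the control libraries Control-307, Control-317, Control-331 came from monkeys with no suture. Deprivated-316 and Deprivated-326 came, by label, from the left dLGN, on the side of the sutured eye. The group means printed in the study's tables followed these labels for 20 of 310 transcripts. They followed an exchange of Control-317 and Deprivated-316 for all 310, so the group of these libraries is uncertain. The labels gave every animal an age of 3 months and placed the suture between 1 and 3 months of age, whereas the published methods timed the collection from the suture. Titles placed Control-317, Deprivated-316 and Deprivated-326 on the left and the other controls on the right, whereas the control descriptions stated that both sides had been mixed. The right dLGN of the deprived monkeys was left out of sequencing for low quality, so the deprived group had no right side. Values of single libraries are given in the order Control-307, Control-317, Control-331, then Deprivated-316, Deprivated-326.

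Perineuronal nets are dense coats of extracellular matrix around the cell bodies and proximal dendrites of some neurons, best known around fast-spiking parvalbumin neurons. Hyaluronan forms their backbone, lecticans (chondroitin sulfate proteoglycans) bind it through link proteins, and tenascin-R joins lecticans to each other. Nets mature as critical periods close, and digesting their chondroitin sulfate chains in the visual cortex of adult rats restored plasticity after monocular deprivation. The lecticans and TNR are also part of the loose matrix between cells and of the matrix at nodes of Ranvier, so their RNA is not particular to nets.

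Libraries held 7391844 to 12966019 estimated counts, and the 14317 genes that passed the filter on low counts were tested. Control-317 stood apart, with r = 0.849 and 0.872 to the other control libraries across genes, which are not independent replicates, against 0.952 between those. Markers of neighbouring regions also differed between libraries of 1 group. Summed over 18 thalamic relay markers, counts scaled to normalized library totals (CPM) ran from 426 to 3813 in the control libraries and were 1184 and 2165 in the deprived libraries. The 16 striatal markers summed to 641 to 7692 CPM in controls and to 2338 and 1955 in the deprived libraries. For 18 cortical and hippocampal excitatory markers the sums were 773 to 923 against 3408 and 2173 CPM. With Control-317 and Deprivated-316 exchanged between the groups, these sums overlapped. SLC17A6, the glutamate transporter that defines relay neurons, stood at 16.5, 679.6 and 68.6 CPM in the controls and 134 and 410.4 in the deprived libraries. In the plot of marker sums, the striatal markers of Control-307 and Control-331 were high where their relay markers were low. In bulk RNA fewer cells of a type and less RNA per cell cannot be told apart. With 1 library per animal, p-values measure the spread between these animals.

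**Figure D1:**
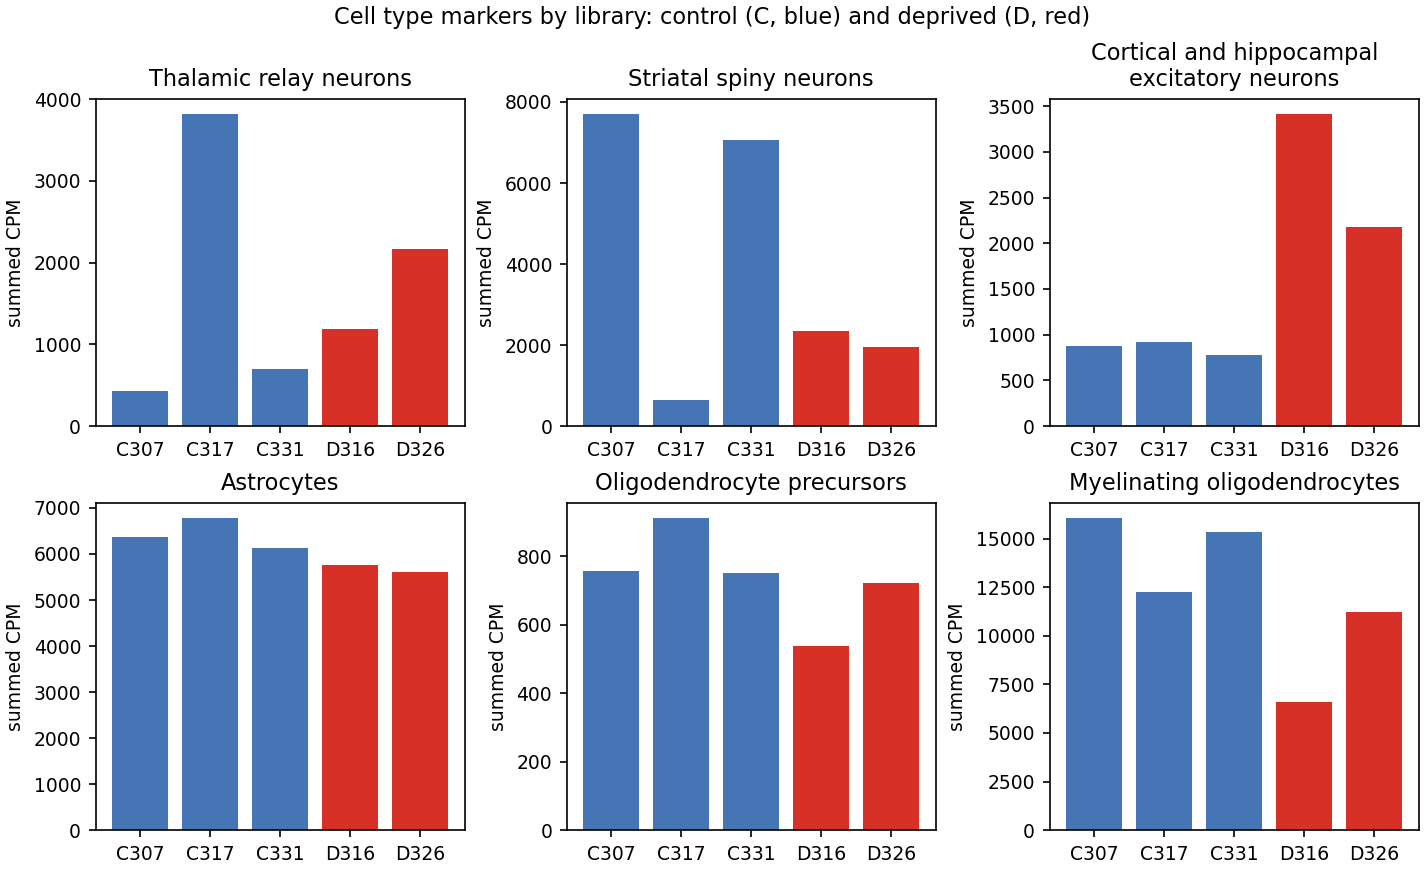
Summed CPM (vertical axes, from 0) of the listed markers of 6 cell types in each library, with control libraries (C) in blue and deprived libraries (D) in red. Relay markers were highest in Control-317 at 3813 CPM and lowest in Control-307 at 426 CPM, and the cortical and hippocampal markers were higher in the deprived libraries (3408 and 2173 CPM) than in all controls.

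The net genes spanned a wide range of levels. Per length and averaged over the 5 libraries, NCAN was highest at 59.6 FPKM (a level corrected for transcript length and library size), above 97.3% of all symbols. BCAN followed at 57.0 FPKM, PTPRZ1 at 44.8 FPKM and TNR at 14.0 FPKM. HAPLN2 at 8.21 FPKM led the link proteins, before HAPLN4 at 4.49, HAPLN1 at 2.59 and HAPLN3 at 0.714 FPKM, and VCAN had 1.18 FPKM. Neighbours in this order overlapped in their range over libraries, except PTPRZ1 (33.1 to 56.5 FPKM) and TNR (7.51 to 22.4 FPKM).

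Of the 10 genes, 9 passed the filter on low counts, and 0 of these 9 were called between deprived and control dLGN by the quasi-likelihood test of edgeR, in which 0% of all genes were called. At an unadjusted p under 0.05 it gave 1 member, HAPLN4, where 9.76% of all genes passed. DESeq2 called 0 of the 9, against 2.14% of all genes, and edgeR's exact test called 0, against 1.56%. The fitted log2 fold change was above 0 for 3 of the 9 (44.9% of all genes), with a median of -0.02 against -0.06 over all genes. By the labels, the groups did not overlap for 2 of the 9, HAPLN4 and PTPRZ1, against 30.8% of all genes. Groups that do not overlap by the labels always overlap once Control-317 and Deprivated-316 are exchanged. None of these counts exceeded the number that the background share gives for 9 genes by as much as 1 gene.

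**Figure D2:**
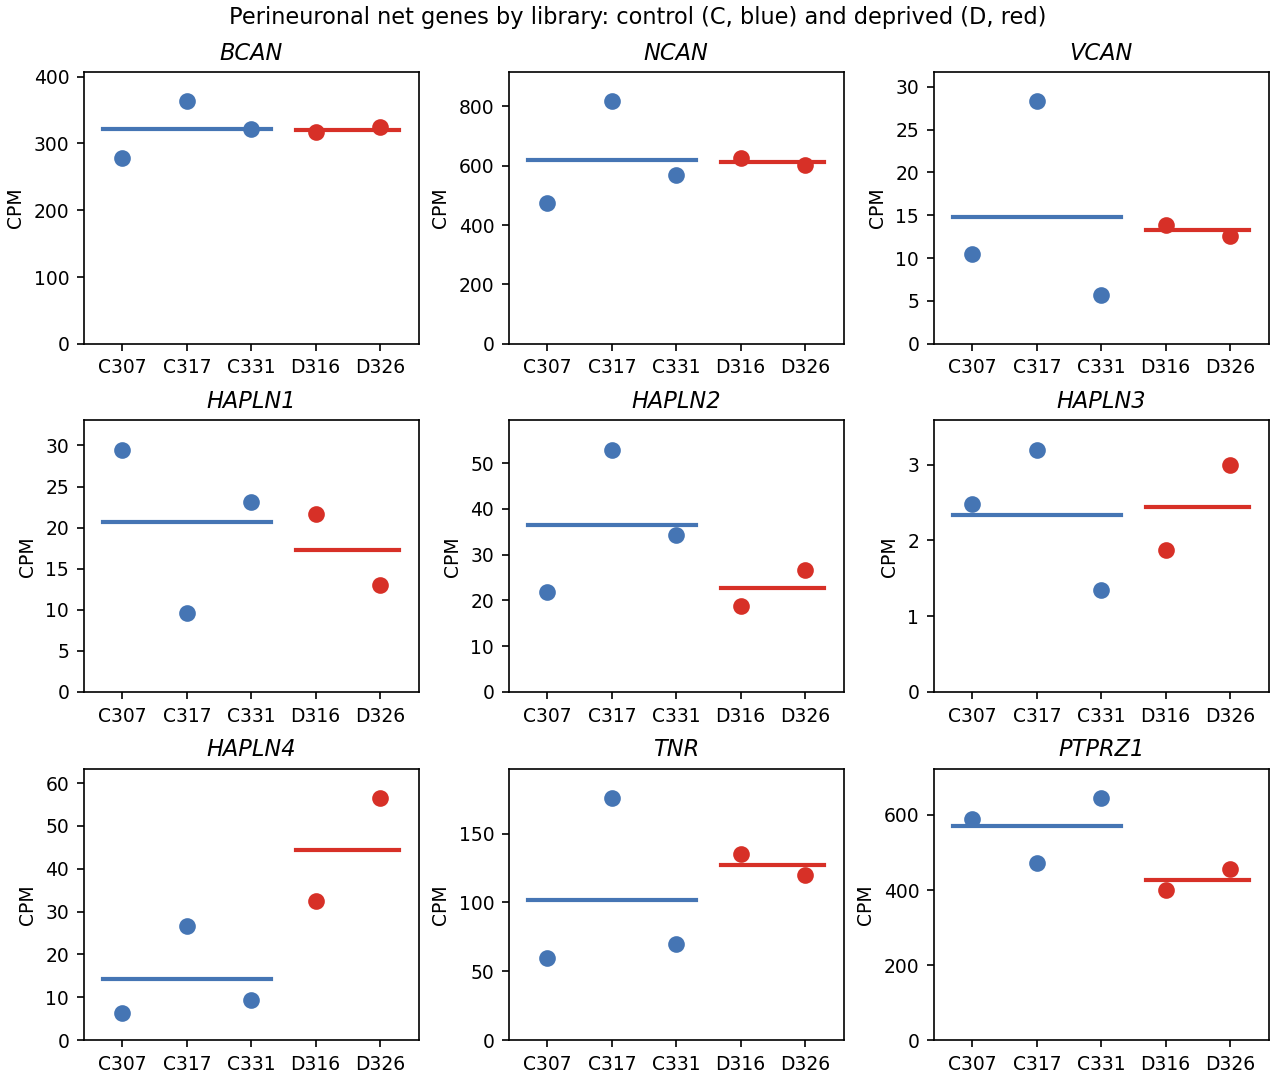
CPM (vertical axes, from 0) of the 9 net genes with counts in each of 3 control (C, blue) and 2 deprived (D, red) libraries, with each group's mean as a line. HAPLN4 was at 32.5 and 56.6 CPM in the deprived libraries, above all control libraries, and PTPRZ1 at 399 and 455 CPM, below them, and in the other 7 genes the groups overlapped.

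Aggrecan (ACAN), the lectican best known as a marker of mature nets, was listed at 0 in every library, on the single transcript that the table holds for it. A limit of 3 counts, which covers counting error only, corresponds to 0.240 to 0.409 CPM in these libraries. The parvalbumin gene PVALB was also listed at 0 everywhere, as were OLIG1 and TF, which oligodendrocyte lineage cells are known to express. In all, 13.6% of the symbols in the table were at 0 in every library. A listed 0 can be a failed estimate for that transcript model, so it was not read as absence of aggrecan RNA.

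Brevican (BCAN), a short lectican made mainly by glia, was the steadiest member. Its levels were 49.4, 65.1 and 59.1 FPKM in the controls and 54.3 and 57.0 FPKM in the deprived libraries. Both deprived values lay inside the control range. On counts the log2 fold change was -0.00 (SE 0.21, 95% interval -0.52 to 0.52, adjusted p = 0.997 by edgeR), an interval from 0.70-fold to 1.43-fold.

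Neurocan (NCAN), a lectican abundant in the developing brain, had 476, 817 and 568 CPM in the controls. Deprived animals had 625 and 602 CPM. Control-317 was the highest library and the deprived values again lay within the control range. By edgeR the log2 fold change was -0.02 (SE 0.29, 95% interval -0.74 to 0.71, adjusted p = 0.992), and without Control-317 it was 0.23.

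Versican (VCAN), which is found in the matrix of precursor cells and at nodes of Ranvier, was low. It had 10.5, 28.3 and 5.74 CPM in the controls and 13.9 and 12.6 CPM in the deprived libraries. The spread among controls enclosed both deprived values, with Control-317 highest. Its log2 fold change was -0.17 (SE 0.68, 95% interval -1.88 to 1.55, adjusted p = 0.959 by edgeR) and turned to 0.71 without Control-317.

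The makeup of the lectican pool was similar in all libraries. NCAN took 47.8%, 54.1% and 48.9% of the summed lectican FPKM in the controls and 51.2% and 49.6% in the deprived libraries. BCAN took 44.2% to 51.3% in controls and 47.8% and 49.5% in the deprived libraries. VCAN held between 0.429% and 1.63% of the pool, its lowest and highest shares both in control libraries. The NCAN to BCAN ratio in FPKM was 0.932 to 1.22 in controls and 1.07 and 1.00 in the deprived libraries.

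HAPLN1, the cartilage link protein that also stabilises nets around cortical neurons in mice, had 29.5, 9.60 and 23.1 CPM in the controls. The deprived values were 21.7 and 13.0 CPM. Control-317 was lowest here, the only net gene for which it was, and the deprived values fell inside the control range. The difference was -0.25 on the log2 scale (SE 0.53, 95% interval -1.59 to 1.08, adjusted p = 0.913 by edgeR). With Control-317 and Deprivated-316 exchanged, the division that the printed group means of the study follow, it was -1.14 (95% interval -1.86 to -0.41, unadjusted p = 0.00872, adjusted p = 0.697 by edgeR).

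HAPLN2 (Bral1), a link protein of nodes of Ranvier in mice, had 21.9, 53.0 and 34.4 CPM in the controls. It had 18.8 and 26.6 CPM in the deprived libraries, so that the groups overlapped through Control-307. Between groups the log2 fold change was -0.68 (SE 0.43, 95% interval -1.75 to 0.38, adjusted p = 0.642 by edgeR), and it turned to 0.67 with Control-317 and Deprivated-316 exchanged (adjusted p = 0.727). Beside it, the 13 tested markers of myelinating oligodendrocytes summed to 12276 to 16037 CPM in controls and to 6581 and 11241 CPM in the deprived libraries, with 13 of 13 log2 fold changes below 0. By edgeR 0 of these 13 were called (0% of all genes) and 3 had an unadjusted p under 0.05 (9.76% of all genes). DESeq2 called 0, against 2.14% of all genes. Over all genes, 44.9% had a log2 fold change above 0. Control-317 had the lowest marker sum of the controls and the highest HAPLN2, and the part of oligodendrocytes in the HAPLN2 values was not tested.

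HAPLN3, a link protein best known outside the nervous system, rested on 14.0 to 40.3 estimated counts per library. It had 2.48, 3.20 and 1.34 CPM in the controls and 1.88 and 3.00 CPM in the deprived libraries. The deprived values lay between the lowest and highest control. At a log2 fold change of 0.06 the 95% interval ran from -1.43 to 1.54 (SE 0.59, adjusted p = 0.983 by edgeR), so that 2-fold differences in either direction lay inside it.

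HAPLN4 (Bral2), which in mice binds brevican in the nets of brainstem and cerebellar neurons, had the widest spread of the net genes, with 8.83-fold between the highest and lowest library. It had 6.42, 26.6 and 9.47 CPM in the controls (mean 14.2 ± 10.9, SD, n = 3) and 32.5 and 56.6 CPM in the deprived libraries (mean 44.5 ± 17.1, SD, n = 2). Both deprived libraries were above every control, although Control-317 lay nearer to Deprivated-316 than to the other controls. The difference of 3.14-fold (log2 1.65, SE 0.65, 95% interval 0.02 to 3.28) had an unadjusted p of 0.0481 and an adjusted p of 0.512 by edgeR. It was not called by DESeq2 (adjusted p = 0.284) or by the exact test (adjusted p = 0.361).

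Whether HAPLN4 was called turned on Control-317. Without it, HAPLN4 was 5.59-fold higher in deprived dLGN (log2 2.48, SE 0.36, 95% interval 1.58 to 3.39, adjusted p = 0.0249 by edgeR), where 6.46% of all genes were called higher. The controls that remained were both titled right and the deprived libraries left, so side by title and deprivation cannot be told apart in that fit. With side as a further term, Control-317 is the only control on the side of the deprived libraries, so that fit sets them against this 1 library, with a log2 fold change of 0.75 (adjusted p = 0.296 by edgeR). The group means printed in the study's tables follow a division in which Control-317 and Deprivated-316 are exchanged. Under that division HAPLN4 overlapped between the groups, at a log2 fold change of 1.37 (adjusted p = 0.714 by edgeR).

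Some markers of other cells differed between the libraries in part as HAPLN4 did. The cortical and hippocampal list had 14 of its 16 tested members above 0 in log2 fold change (44.9% of all genes). By edgeR 0 of the 16 were called and 10 had an unadjusted p under 0.05 (9.76% of all genes). DESeq2 called 9 of the 18 listed (2.14% of all genes). The list summed to 773 to 923 CPM in controls and to 3408 and 2173 CPM in the deprived libraries. CAMK2A gave 495, 447 and 367 CPM of these sums in the controls and 1784 and 1159 CPM in the deprived libraries. With Control-317 and Deprivated-316 exchanged, the list sums overlapped, since Deprivated-316 was highest and Control-317 was at 923 CPM. TBR1, a transcription factor of deep-layer cortical neurons, was at 98.4 and 50.0 CPM in the deprived libraries against 2.48, 0.400 and 1.34 in controls. Within the deprived libraries the order was opposite, with the higher cortical sum in Deprivated-316 and the higher HAPLN4 in Deprivated-326. Relay marker sums had the order of HAPLN4 among controls, Control-317 before Control-331 and Control-307, but were highest of all in Control-317, where HAPLN4 was below both deprived libraries. SLC17A7, the glutamate transporter of cortical excitatory neurons, was at 0, 0 and 2.39 CPM in the controls and 44.0 and 13.6 CPM in the deprived libraries, and EOMES of that list was at 0 everywhere. The part of either cell type in the HAPLN4 values was not tested.

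**Figure D3:**
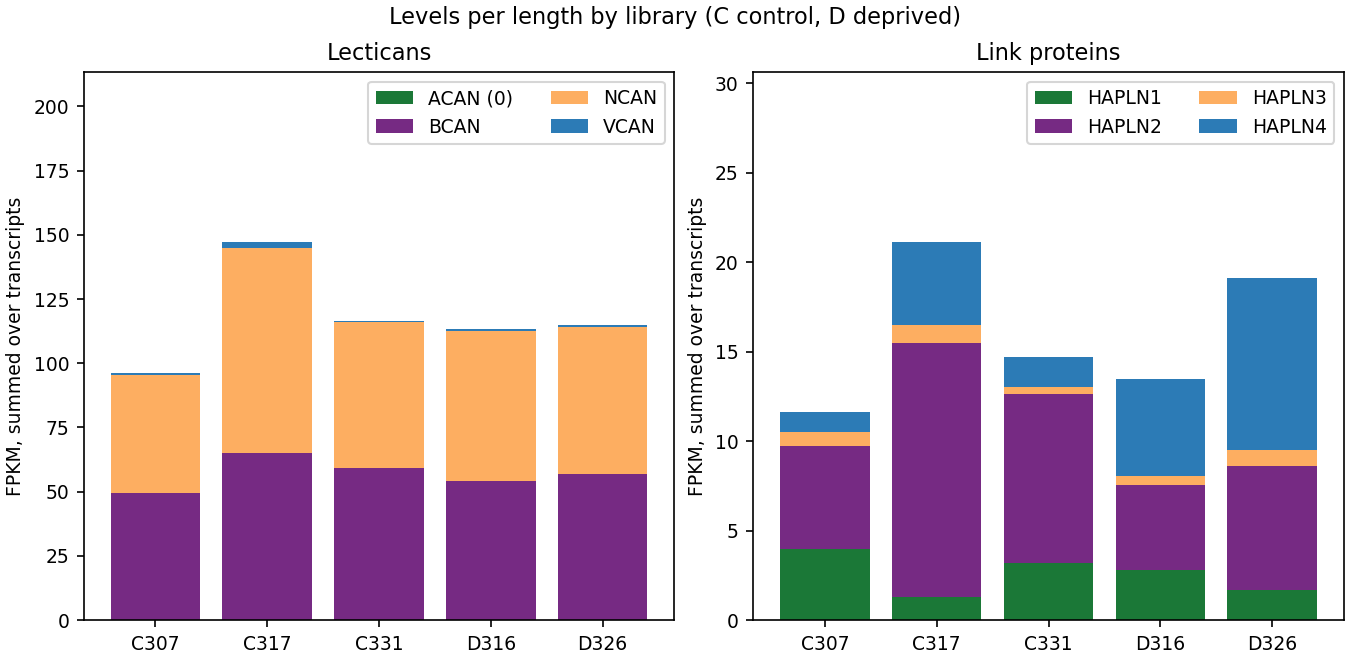
Stacked FPKM (vertical axes, from 0) of the lecticans (left) and link proteins (right) in each control (C) and deprived (D) library. NCAN and BCAN filled nearly all of the lectican pool in every library, whereas HAPLN4 took 9.55% to 22.0% of the link protein pool in controls and 40.0% and 50.4% in the deprived libraries.

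HAPLN4 and HAPLN2 took different shares of the link protein pool in these libraries. HAPLN4 held 9.55%, 22.0% and 11.5% of the summed link protein FPKM in the controls and 40.0% and 50.4% in the deprived libraries. HAPLN2 held 49.9% to 67.2% in controls and 35.3% and 36.1% in the deprived libraries. Neither share overlapped between the groups, but the shares are parts of 1 total, and 3 against 2 libraries cannot give a two-sided exact permutation p below 0.2. With Control-317 and Deprivated-316 exchanged, both shares overlapped. The ratio of HAPLN4 to HAPLN2 in FPKM was 0.191, 0.327 and 0.179 in the controls and 1.13 and 1.39 in the deprived libraries. HAPLN1 took 34.1%, 6.16% and 21.7% in the controls and 20.6% and 8.89% in the deprived libraries, with Control-317 lowest. The pool itself was 11.6 to 21.1 FPKM in controls and 13.5 and 19.1 FPKM in the deprived libraries.

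Each lectican gene has a link protein gene as its neighbour, as annotated in the RefSeq table of the T2T-MFA8v1.1 assembly: ACAN beside HAPLN3, BCAN beside HAPLN2, NCAN beside HAPLN4 and VCAN beside HAPLN1, with 0 protein-coding genes between. Within these pairs the libraries were ordered differently. NCAN overlapped between the groups where HAPLN4 did not, and Control-317 was highest for VCAN and lowest for HAPLN1. For BCAN and HAPLN2 the highest library was Control-317 in both, and the lowest was Control-307 for BCAN and Deprivated-316 for HAPLN2.

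Tenascin-R (TNR), the cross-linker made by oligodendrocyte lineage cells and some neurons, had 59.3, 176 and 69.8 CPM in the controls. The deprived libraries had 135 and 120.2 CPM. They lay between Control-317 above and the other controls below. Its log2 fold change was 0.32 (SE 0.51, 95% interval -0.95 to 1.60, adjusted p = 0.881 by edgeR).

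TNR was the other member that was called once Control-317 was left out, at 1.97-fold higher in deprived dLGN (log2 0.98, SE 0.15, 95% interval 0.60 to 1.36, adjusted p = 0.0265 by edgeR). The side by title cannot be told apart from deprivation in that fit either. With side as a further term the deprived libraries are set against Control-317 alone, the highest library for TNR, and the log2 fold change was -0.47 (adjusted p = 0.155 by edgeR). Under the exchanged division it was 0.75 (adjusted p = 0.714). Of 11 tested oligodendrocyte precursor markers, 8 were below 0 and 3 above, where 44.9% of all genes were above 0. These markers summed to 751 to 910.0 CPM in controls and to 537 and 721 CPM in the deprived libraries, where TNR was not the lowest. Their part in TNR was not tested.

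PTPRZ1, a receptor tyrosine phosphatase whose secreted form is the proteoglycan phosphacan, had 589, 473 and 646 CPM in the controls (mean 569.6 ± 88.1, SD, n = 3). It had 399 and 455 CPM in the deprived libraries (mean 427 ± 39.8, SD, n = 2), below every control, the nearest being Control-317. The log2 fold change was -0.42 (SE 0.23, 95% interval -1.0 to 0.17, unadjusted p = 0.128, adjusted p = 0.598 by edgeR). Without Control-317 it was -0.53 (adjusted p = 0.0691 by edgeR), where side by title cannot be told apart from deprivation. With side as a further term, which sets the deprived libraries against Control-317 alone, it was -0.15. With Control-317 and Deprivated-316 exchanged it was -0.23 (adjusted p = 0.836 by edgeR), and the groups overlapped. Astrocyte markers summed to 6139 to 6773 CPM in controls and to 5753 and 5603 CPM in the deprived libraries, with 11 of 13 below 0 in log2 fold change. Over all genes, 44.9% were above 0. By edgeR 0 of the 13 were called and 2 had an unadjusted p under 0.05 (9.76% of all genes). DESeq2 called 1 (2.14% of all genes), FGFR3, a growth factor receptor of astrocytes that was lower in the deprived libraries. FGFR3 had a log2 fold change of -0.88, with adjusted p = 0.354 by edgeR, 0.0214 by DESeq2 and 0.0274 by edgeR without Control-317. The summed precursor markers were lower in both deprived libraries too, with 8 of 11 tested below 0 but PDGFRA at -0.09 and CSPG4 at 0.05 in log2 fold change. As a mean of log2 CPM the precursor markers overlapped, with 5.47, 5.68 and 5.61 in the controls and 5.14 and 5.63 in the deprived libraries. Lower sums were not particular to these cells. Microglial markers summed to 465 to 609.7 CPM in controls and to 404 and 408 CPM in the deprived libraries. Endothelial and mural markers summed to 458 to 491 CPM in controls and to 349 and 372 CPM in the deprived libraries. The part of astrocytes and precursors in the PTPRZ1 values was not tested. TNR over PTPRZ1 in FPKM was 0.148, 0.502 and 0.161 in the controls and 0.490 and 0.378 in the deprived libraries.

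**Figure D4:**
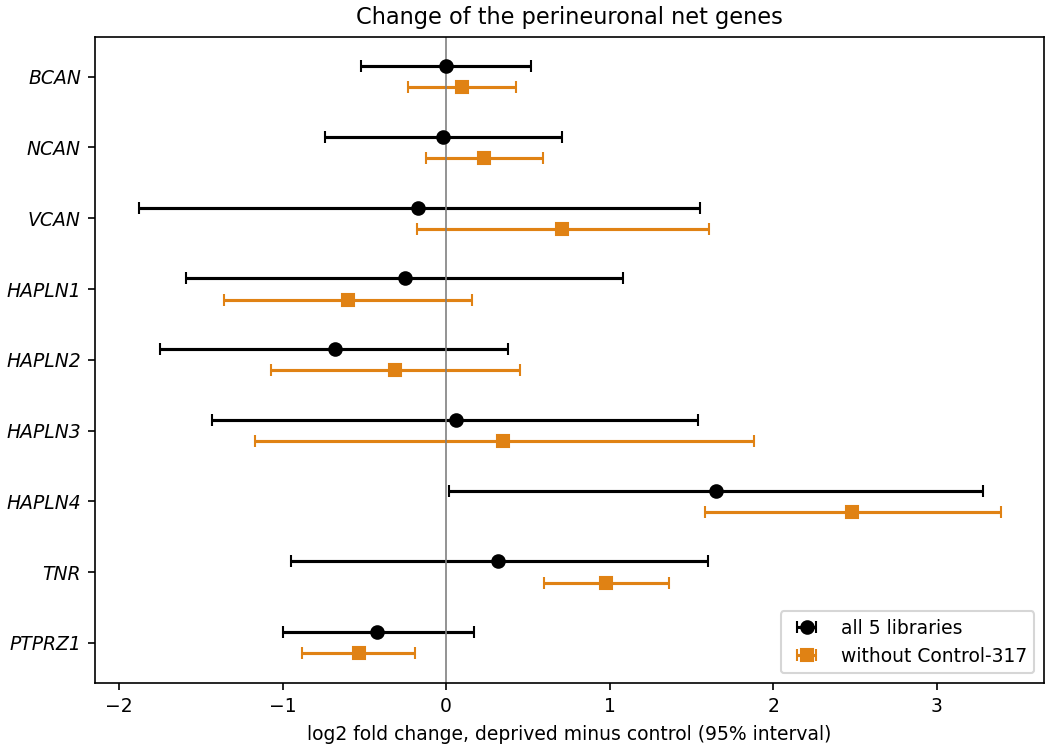
Log2 fold change (horizontal axis, deprived minus control) of 9 net genes with its 95% interval from edgeR, for all 5 libraries (black circles) and without Control-317 (orange squares). HAPLN4 at 1.65 was the only gene whose interval excluded 0 with all libraries, and HAPLN4 (2.48), TNR (0.98) and PTPRZ1 (-0.53) had intervals that excluded 0 without Control-317, of which HAPLN4 and TNR passed after adjustment.

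Control animals differed among themselves in the net genes, and the groups overlapped for 7 of the 9 tested. Control-317 was the highest of the 5 libraries for 6 of 9 members (BCAN, NCAN, VCAN, HAPLN2, HAPLN3 and TNR), where 30.5% of all genes were highest in it, and the lowest for 1, HAPLN1 (29.5% of all genes). In NCAN, VCAN, HAPLN4 and TNR both right-titled libraries were below the 3 left-titled libraries (21.7% of all genes). In HAPLN1 and PTPRZ1 both were above them (23.2% of all genes). The sum over the 10 members was 1474, 1950.3 and 1679 CPM in the controls and 1564 and 1613 CPM in the deprived libraries, with both deprived values inside the control range.

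The transcripts were variants named X1 to X5 in the files, and the authors' counting divided reads between the variants of a gene, so shares of variants are estimates. Of the 30 transcripts, 6 were at 0 in every library (that of ACAN, VCAN X1 and X2, HAPLN1 X4, HAPLN2 X1 and PTPRZ1 X2), and 21 passed the filter. Of these 21, 0 were called by edgeR's quasi-likelihood test, in which 0% of all transcripts were called, 0 had an unadjusted p under 0.05 (6.41% of all transcripts), and 0 were called by the exact test (1.30%) or DESeq2 (3.06%). The lowest unadjusted p was 0.0734, for HAPLN4 X1. Groups did not overlap for 4 of the 21 (26.8% of all transcripts tested): HAPLN4 X1 was higher and BCAN X2, BCAN X5 and PTPRZ1 X3 lower in both deprived libraries.

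HAPLN4 counts came almost entirely from X1, which held 99.3% of them, and NCAN counts from X1 at 90.5%, while VCAN X3 held 100%. BCAN was spread over X5 (40.2%), X3 (33.1%) and X4 (19.1%). BCAN X5 had 130.1, 132 and 153 CPM in the controls and 119 and 111 CPM in the deprived libraries. BCAN X3 had 66.0, 149 and 83.9 CPM in the controls and 115 and 119 CPM in the deprived libraries, with Control-317 highest. The steady BCAN total thus held variants with unequal patterns. As a share of BCAN counts, X3 was 23.2% (95% Wilson interval 21.6 to 24.8) in Control-307 and 40.5% (39.1 to 42.0) in Control-317, intervals that cover counting error only.

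The main PTPRZ1 variants split differently in Control-317. PTPRZ1 X1 had 409, 227 and 482 CPM in the controls and 269 and 287 CPM in the deprived libraries. PTPRZ1 X3 had 193, 237 and 172 CPM in the controls and 128 and 161 CPM in the deprived libraries. X1 was 47.6% of PTPRZ1 counts in Control-317 (95% Wilson interval 46.3 to 48.8) and 63.8% to 73.6% in the other 4 libraries. Which variant encodes the secreted form was not analysed here.

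HAPLN1, HAPLN2 and TNR had smaller counts behind their variants. HAPLN1 X2 held 54.4%, 89.3% and 57.5% of HAPLN1 counts in the controls and 82.2% and 73.4% in the deprived libraries, and X3 10.7% to 42.5% in controls and 9.80% and 26.6% in the deprived libraries. HAPLN2 X3 ranged from 52.0% (Control-307) to 85.3% (Deprivated-326) and X4 from 14.7% to 43.3%, with no separation of the groups. TNR X1 ranged from 54.0% to 75.1% and X2 from 22.0% to 36.3%, both extremes in control libraries.

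**Figure D5:**
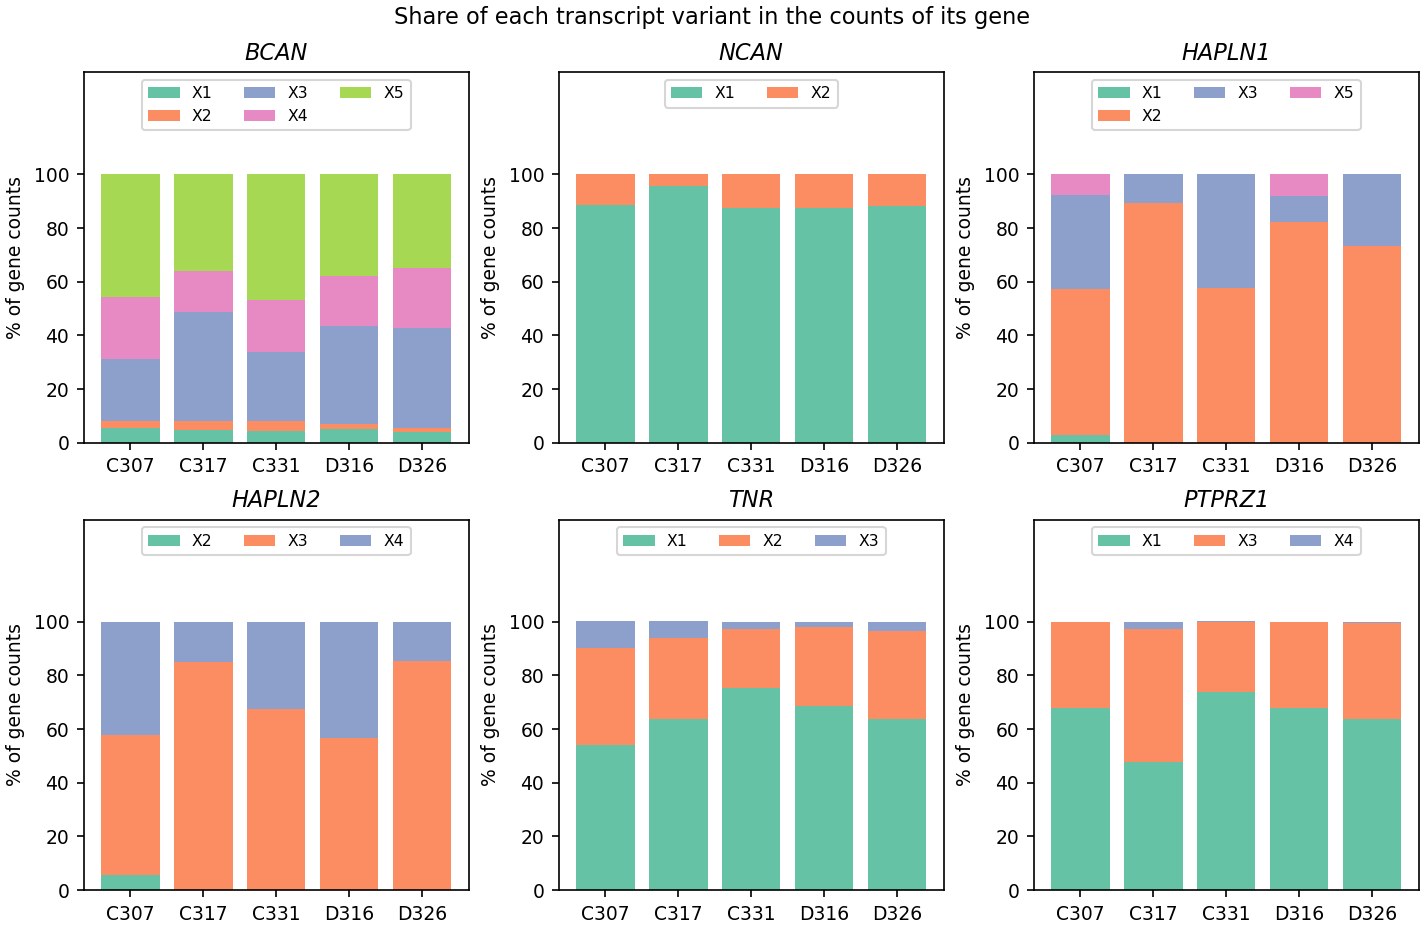
Percent of the estimated counts of a gene (vertical axes, to 100) held by each transcript variant in each control (C) and deprived (D) library, for 6 net genes with more than 1 variant. PTPRZ1 X1 took 47.6% in Control-317 against 63.8% to 73.6% elsewhere, and BCAN X3 took 40.5% in Control-317 against 23.2% in Control-307.

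Genes that build, modify, cut or sense the net matrix were grouped in 5 further lists with 77 tested members. By edgeR's quasi-likelihood test 0 of the 77 were called, 9 had an unadjusted p under 0.05 (9.76% of all genes), and DESeq2 called 3 (CSGALNACT1, ADAMTS8 and PLXNA4), against 2.14% of all genes. Without Control-317, edgeR called 8 higher and 2 lower, with 10.1% of all genes called in either direction. Side by title cannot be told apart from deprivation in any fit without Control-317. The median log2 fold change over all genes was -0.06, and 44.9% of them were above 0.

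Among the chondroitin sulfate enzymes, 6 of 21 tested genes had a log2 fold change above 0, with a median of -0.16. CSGALNACT1, which starts chondroitin chains, had 17.8, 23.3 and 22.5 CPM in the controls and 80.5 and 51.2 CPM in the deprived libraries. By the labels, the deprived libraries were both above every control, but the groups overlapped with Control-317 and Deprivated-316 exchanged. The log2 fold change was 1.63 (SE 0.27), with adjusted p = 0.280 by edgeR, 0.0290 without Control-317, and 7.47e-04 by DESeq2. UST, a sulfotransferase of chondroitin and dermatan sulfate, had a log2 fold change of -0.74 (adjusted p = 0.608), DSE, the epimerase that makes dermatan sulfate, -0.63 (adjusted p = 0.651), and FAM20B, a kinase of the linkage xylose, 0.60 (adjusted p = 0.598 by edgeR). CHST13 was listed at 0 everywhere.

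Of 8 tested genes of hyaluronan synthesis, breakdown and binding, 5 were above 0 in log2 fold change, with a median of 0.58 and 0 called in either fit. CEMIP, a hyaluronan-degrading protein, had 23.5, 35.4 and 33.3 CPM in the controls and 72.8 and 45.0 CPM in the deprived libraries (log2 fold change 0.94, SE 0.31, adjusted p = 0.449 by edgeR). Its groups did not overlap. HAS3, a hyaluronan synthase, had a log2 fold change of 1.28 (adjusted p = 0.608), CD44, a hyaluronan receptor, -1.17 (adjusted p = 0.545) and the hyaluronidase HYAL1 0.74 (adjusted p = 0.899 by edgeR), all with overlapping groups.

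Of 19 tested proteases and inhibitors, 8 were above 0, with a median of -0.22. ADAMTS8 had 13.2, 10.9 and 11.9 CPM in the controls and 38.1 and 21.8 CPM in the deprived libraries. ADAMTS15 had 8.28 to 12.9 CPM in controls and 33.0 and 20.3 CPM in the deprived libraries. These metalloproteases belong to the family that cleaves lecticans, and by the labels neither overlapped between groups. With Control-317 and Deprivated-316 exchanged, both overlapped. The log2 fold change of ADAMTS8 was 1.32 (SE 0.30), with adjusted p = 0.352 by edgeR and 0.0479 by DESeq2, and that of ADAMTS15 was 1.30 (SE 0.33), with adjusted p = 0.386 by edgeR and 0.0823 by DESeq2. MMP15 and ADAMTS5 had log2 fold changes of -1.55 and -1.12 (adjusted p = 0.812 and 0.795 by edgeR) through high values in Control-317, 93.7 and 32.8 CPM, and without it 2.03 and 0.24.

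Of 14 tested receptors and ligands of the net, 10 were above 0, with a median of 0.53 against -0.06 over all genes. Without Control-317 5 were called higher and 0 lower, where 6.46% of all genes were called higher. The controls in that fit were titled right and the deprived libraries left, so these calls cannot be assigned to deprivation rather than side. RTN4RL2, a Nogo receptor family member, had 0.517, 8.88 and 1.15 CPM in the controls and 42.5 and 26.9 CPM in the deprived libraries (log2 fold change 3.28, SE 1.11, adjusted p = 0.461 by edgeR). RTN4RL1, a receptor of chondroitin sulfate chains, had 8.90, 59.3 and 14.0 CPM in the controls and 83.3 and 73.2 CPM in the deprived libraries (1.51, SE 0.81, adjusted p = 0.591). Both had no overlap between groups and were among the genes called without Control-317 (adjusted p = 0.0145 and 0.0166 by edgeR). RTN4R, the Nogo receptor itself, had a log2 fold change of 2.05 (adjusted p = 0.686) and PLXNA1, a semaphorin co-receptor, 1.86 (adjusted p = 0.738 by edgeR), the latter resting on 110.4 CPM in Deprivated-316 beside 0.273 CPM in Deprivated-326. PTPRS, the receptor phosphatase for chondroitin sulfate, was chosen after its values were seen and had 369.9, 949.9 and 375 CPM in the controls and 888 and 861 CPM in the deprived libraries, so Control-317 was highest (0.63, adjusted p = 0.704). Without Control-317 it was among those called higher (1.23, adjusted p = 0.0166 by edgeR). PLXNA4, named because DESeq2 called it, had 96.2, 128 and 111 CPM in the controls and 257 and 191 CPM in the deprived libraries. Its log2 fold change was 1.00 (SE 0.23), with adjusted p = 0.353 by edgeR, 0.0300 by DESeq2 and 0.0306 by edgeR without Control-317.

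In the other tenascins and matrix proteoglycans, 7 of 15 tested genes were above 0, with a median of -0.03. Tenascin-C (TNC) had 69.3, 27.9 and 69.2 CPM in the controls and 117 and 78.6 CPM in the deprived libraries (log2 fold change 0.82, SE 0.45, adjusted p = 0.594 by edgeR). The deprived libraries were both higher. TNXB, another tenascin, had a log2 fold change of 0.56 (adjusted p = 0.525 by edgeR), also with both deprived libraries above every control. The glypicans GPC4 and GPC1 had 0.89 and -0.79 (adjusted p = 0.881 and 0.789 by edgeR), with overlapping groups. TNN was listed at 0 everywhere.

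The neurons that nets are best known to surround were read from 12 tested fast-spiking neuron genes. Of these, 6 were above 0 (44.9% of all genes) and 0 called by edgeR (0% of all genes). The median log2 fold change was -0.04, against -0.06 over all genes. Without Control-317, edgeR called 2 of 11 tested higher and 1 lower, with 10.1% of all genes called in either direction. Sums over the list were 1181 to 1467 CPM in controls and 1076 and 1144 CPM in the deprived libraries. The highest sum, that of Control-317, held 1030.5 CPM from KCNC2 alone, a gene that is also on the relay list. KCNC2 gave 91.9 CPM to the sum of Control-307, 163 to Control-331, 335 to Deprivated-316 and 522 to Deprivated-326. The lower deprived values held for the raw sums only. As a mean of log2 CPM over the 12 tested genes the groups overlapped. These means were 4.84, 4.62 and 5.38 in the controls and 5.07 and 5.11 in the deprived libraries. KCNS3, a potassium channel subunit of parvalbumin neurons, had 3.31, 2.16 and 1.24 CPM in the controls and 6.57 and 6.14 CPM in the deprived libraries (log2 fold change 1.5, SE 0.52, adjusted p = 0.464 by edgeR). LHX6, a transcription factor of their lineage, had a log2 fold change of 0.85 (adjusted p = 0.689), the synaptotagmin SYT2 -0.96 (adjusted p = 0.703) and the tachykinin precursor TAC1, which is also a striatal marker, -1.44 (adjusted p = 0.734 by edgeR). With PVALB listed at 0 in every library, the presence of parvalbumin neurons could not be read from their defining gene.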

How the data were processed

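The authors filtered reads with fastp 0.18.0, aligned them to the Macaca_fascicularis_5.0 assembly (HISAT2 in the published methods, with Bowtie2 2.2.8 also listed in the submitters' processing notes) and quantified RefSeq transcripts with StringTie 1.3.4. The deposited files hold estimated counts per transcript for all libraries and, per library, FPKM made by the authors. Whether counting used strand is not given in the sources used here.

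Estimated counts were rounded, summed per symbol and tested over all 14317 genes (33469 transcripts) with edgeR 4.0.16 in R 4.3.3 (quasi-likelihood test, TMM, edgeR's default filter, Benjamini-Hochberg adjusted p, threshold 0.05). CPM use TMM-scaled totals, and FPKM were summed over the transcripts of a symbol. The test was tested on simulated data. Alternatives were DESeq2 1.42.0, the exact test of edgeR, limma 3.58.1 with log2(FPKM + 1) or log2(FPKM + 0.1) at a mean FPKM of at least 0.5 or no filter, other size factors, no filter on counts, side as a term, exchanged labels and leaving out each library.

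Members, lists and tests were chosen with earlier results of these data known. All members are named, and of each other list up to 4 genes with the largest log2 fold change in size among those averaging at least 1 in log2 CPM. Defining markers of a cell type, such as SLC17A6, could be named as well. PTPRS, PLXNA4, KCNC2 and CAMK2A were named outside these rules. Transcripts with at least 10% of the counts of their gene were described. The groups were taken from the labels. Of 310 transcripts in the study's tables, the printed group means followed the labels for 20 and the exchange of Control-317 and Deprivated-316 for 310, within a relative 0.001 or an absolute 0.01. None of these transcripts belonged to a net gene. Protein and promoter sequences are not used here, and coordinates are left out, since the reference table is of another assembly.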

Additional observations from a re-analysis of the deposited data

How the results depend on the processing

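The count of net genes called was 0 in every alternative but 1, and that of their transcripts 0 with DESeq2, the exact test, no filter and each library left out, the alternatives run for transcripts. Leaving out a library in turn gave 0 to 2 net genes, the 2 being HAPLN4 and TNR without Control-317. Over all genes the count moved from 0 to 328 with DESeq2, 224 with the exact test, 1 with limma on log2(FPKM + 1), 777 with side as a term, and 0 to 1420 when leaving out a library, the 1420 without Control-317. Over all transcripts it moved from 0 to 1039 with DESeq2 and 434 with the exact test. The sign of several log2 fold changes turned. With Control-317 and Deprivated-316 exchanged they were 0.17 for BCAN, 0.35 for NCAN, 1.03 for VCAN and 0.67 for HAPLN2. BCAN was 0.01 with DESeq2 and 0.01 with DESeq2-type size factors, and VCAN 0.05 with limma on log2(FPKM + 0.1). With side as a term, which leaves Control-317 as the only control on the deprived side, they were 0.85 for HAPLN1, -0.39 for HAPLN3 and -0.47 for TNR. Leaving out a library gave -0.10 to 0.10 for BCAN, -0.18 to 0.23 for NCAN, -0.55 to 0.71 for VCAN, -0.67 to 0.09 for HAPLN1 and -0.31 to 0.36 for HAPLN3, whereas HAPLN2 (-0.95 to -0.31), HAPLN4 (1.20 to 2.48), TNR (0.05 to 0.98) and PTPRZ1 (-0.53 to -0.32) kept their sign. The cause of these moves was not tested. No paired analysis was possible because the groups share no replicate numbers. With 3 and 2 animals, and with Control-317 apart from the other controls, the 95% intervals of VCAN, HAPLN1, HAPLN2, HAPLN3, HAPLN4 and TNR reached beyond a 2-fold difference.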
